A study of Mus musculus with 12 samples.

Results

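Respiratory complex I is the NADH dehydrogenase of the inner mitochondrial membrane, and its nuclear-encoded subunits were followed here by RNA sequencing of mouse hearts with and without the glucocorticoid receptor in cardiomyocytes. A row of the table counted as a complex I gene when its symbol began with Ndufa, Ndufab, Ndufb, Ndufc, Ndufs or Ndufv followed by digits. The rule found 38 of the 24918 rows. Of these, 37 reached 10 normalized units, on the linear scale, in 3 or more libraries and were tested. The remaining one, Ndufs5, was listed at -2.20 in all 12 libraries and was not tested. The 38 rows hold 10 genes of the NADH-oxidizing N module, 6 of the ubiquinone-reducing Q module, 9 of the proximal membrane arm and 11 of the distal membrane arm. The other 2, Ndufa4 and Ndufa4l2, carry the family name, but Ndufa4 is now assigned to complex IV and Ndufa4l2 is its paralogue. Ndufb1 and the mitochondrially encoded subunits were not analysed here.

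Complex I takes electrons from NADH at a flavin, passes them along a chain of iron-sulfur clusters to ubiquinone, and pumps protons across the membrane, which ATP synthase then uses. Its core subunits carry the flavin, the clusters and the proton channels, and are conserved from bacteria; the supernumerary subunits surround them and are needed for assembly and stability. Heart muscle is among the tissues richest in complex I, since contraction draws almost all of its ATP from respiration. The glucocorticoid receptor, encoded by Nr3c1, is a hormone-activated transcription factor.

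The hearts came from C57BL/6 mice aged 2 months that had received no treatment. Each of 4 groups had 3 libraries: male cardioGRKO, male floxed, female cardioGRKO and female floxed. The cardioGRKO mice carried the floxed receptor gene together with Cre recombinase under the αMHC promoter, which is active in cardiomyocytes, and the floxed mice carried the floxed gene without Cre, so that an effect of Cre itself cannot be told apart from that of the deletion. The groups rest on the sample titles, because the genotype field reads wild-type for all 12. Whether each library is a separate animal is not in the labels, so p-values measure only the spread between libraries, which may be technical.

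Nr3c1 averaged 10.85 on the log2 scale in male cardioGRKO and 11.41 in male floxed hearts, a difference of -0.56 (adjusted p = 2.45e-11 by limma). In the libraries labelled female cardioGRKO it averaged 10.88, against 10.74 in those labelled female floxed, a difference of 0.14 (adjusted p = 0.000384), which goes against the label; every female direction below is that of the libraries as labelled. Cardiomyocyte markers were high throughout: Myh6, the main myosin heavy chain of the mouse heart, lay between 19.34 and 19.51. The libraries labelled female floxed 1 and 2 stood apart through corneal epithelial transcripts, with Krt12 at 13.13 and 13.98, against 8.35 in the third and 7.16 to 8.49 in the other 3 groups. The libraries labelled female floxed correlated with one another at 0.99798 to 0.99965, and those within each other group at 0.9997 or above. No 2 libraries of a group held identical values.

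The factors usually named as activators of complex I genes bind close to the start of transcription, so the promoters were read for their motifs. RefSeq promoter windows (GRCm38.p6) were found for 33 of the 38 genes, and 5 exact motifs were searched on both strands in the 250 bases before the start. The NRF1 motif GCATGCGC, bound by nuclear respiratory factor 1, an activator of respiratory chain genes, was present in 3 of 33 promoters (9.09%), against 4.22% of the promoters of 11555 tested genes and 2.32% of all 27025. The stretches that hold it are shown 5′ to 3′ on the gene's strand with the motif in capitals, from chr17:56717692-56717721 (plus strand), chr15:82354356-82354385 (minus strand) and chr2:36049339-36049368 (minus strand). The Ndufa11 stretch holds overlapping matches on both strands.
Ndufa11: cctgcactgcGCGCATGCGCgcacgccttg
Ndufa6: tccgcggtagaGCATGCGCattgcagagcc
Ndufa8: gcgcttgcgcgtcgctggagacGCATGCGC
The other motifs were found in 0 of 33 promoters: TCAAGGTCA of the estrogen-related receptors (0.251% of tested genes), CCGGAAGTG of ETS factors such as GABP (2.81%), AAGATGGCG of YY1 (1.08%) and the glucocorticoid response element core ACANNNTGT (3.7%). A missing match says only that these letters are not in the window. Of the genes with an NRF1 match, Ndufa8 was lower in male cardioGRKO hearts (-0.10, adjusted p = 0.000649), while Ndufa6 (-0.029, adjusted p = 0.332) and Ndufa11 (0.035, adjusted p = 0.355) were not called.

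In males, complex I genes were lower in cardioGRKO than in floxed hearts across every module, by small amounts. Of 37 genes tested, 24 fell and 0 rose at an adjusted p under 0.05 (limma with Benjamini-Hochberg adjustment over 14721 genes), where 14.6% of all genes tested fell and 12.8% rose. The male differences ranged from -0.24 to 0.035 with a median of -0.10, 35 of 37 were negative, and the median of all genes tested was -0.0021. The male cardioGRKO libraries lay wholly below the male floxed libraries for 27 genes and wholly above for 1, where 22% and 19.4% of all genes did so. By module, 7 of 10 N module genes, 5 of 6 Q module genes, 4 of 8 in the proximal arm and 6 of 11 in the distal arm fell. The members are highly expressed, and high-level genes fell more often in these libraries: among 928 genes averaging a log2 value of at least 12, a level chosen after the values were seen, 45.3% fell and 17.5% rose in males, with a median of -0.046, while 23 of the 32 complex I genes at that level fell (71.9%). After quantile normalization, 17 of 37 fell and 2 rose, and the median was -0.069. Shares of all genes called are not given for this or the other alternative settings below, except for the exchange of female genotypes. The summed level of the 36 structural subunits listed was 18.51 to 18.53 in male cardioGRKO libraries, against 18.63 in each male floxed library on the log2 scale.

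**Figure D1:**
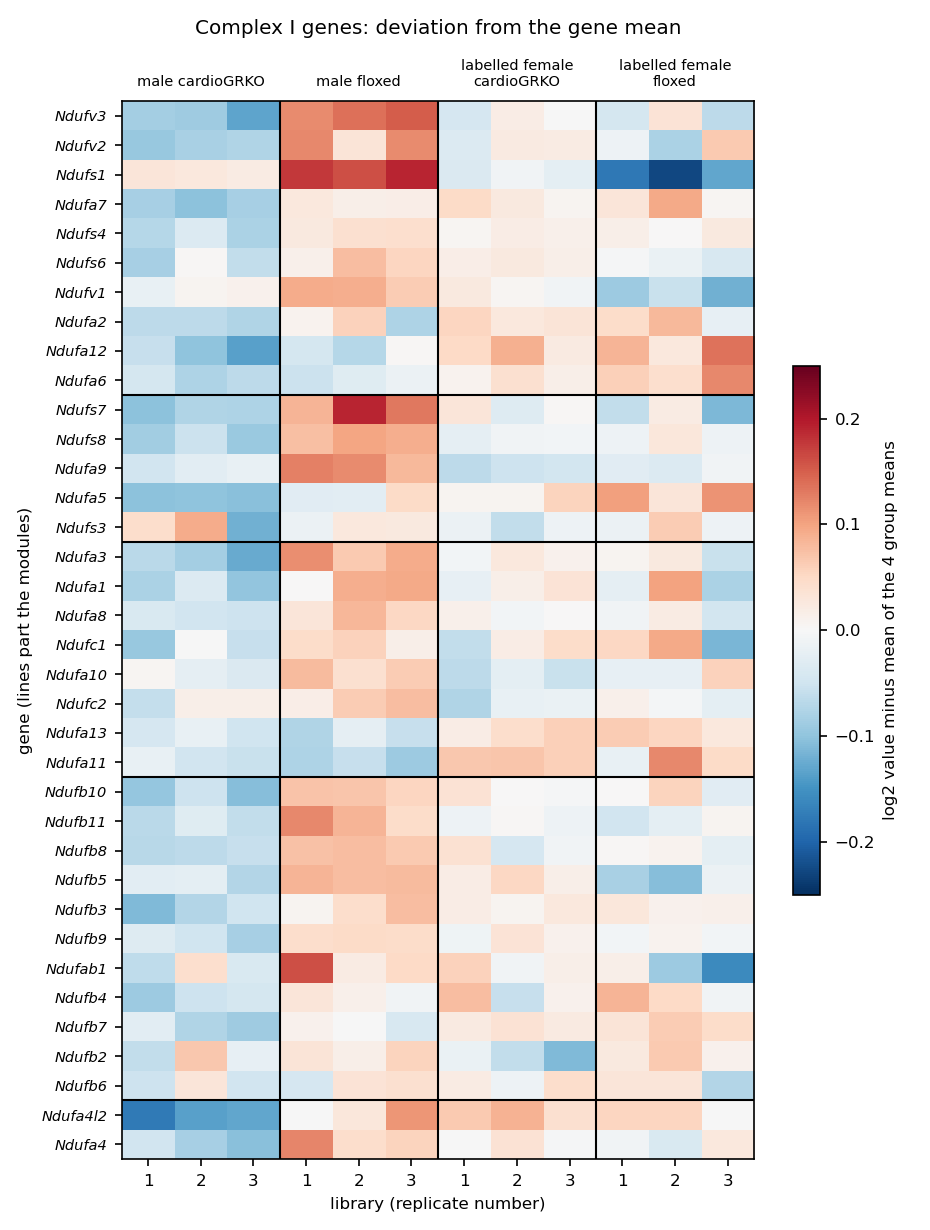
Deviation of 36 complex I genes (rows, parted by module), each from its own mean over the 12 libraries, on the log2 scale, in each library (columns, grouped by sex and genotype, female groups as labelled). In males the cardioGRKO libraries lie mostly below and the floxed libraries mostly above the gene's mean. Of 37 genes, 25 have their lowest group mean in male cardioGRKO hearts and 25 their highest in male floxed hearts. Of all genes tested 22.8% and 28.6% do so.

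The N module, at the tip of the matrix arm, held the gene with the most negative male difference. Ndufv3, a small supernumerary subunit beside the flavin site, had values of 13.11, 13.11 and 13.06 in male cardioGRKO libraries, against 13.31, 13.33 and 13.35 in male floxed libraries. The groups did not overlap, and the difference was -0.24 (SE 0.024, adjusted p = 9.86e-07), or 84.8% of the floxed level. The libraries labelled female cardioGRKO had 13.15, 13.21 and 13.19, against 13.15, 13.23 and 13.13 in those labelled female floxed, overlapping values with a difference of 0.017 (adjusted p = 0.65). The male change minus the female change was -0.25 (adjusted p = 2.02e-05).

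Ndufs1, the largest subunit, carries several of the iron-sulfur clusters. In male hearts it had 14.33, 14.33 and 14.32 in cardioGRKO libraries, against 14.48, 14.46 and 14.49 in floxed libraries. In the libraries labelled female the order was turned round, with 14.26, 14.29 and 14.28 in cardioGRKO and 14.12, 14.07 and 14.17 in floxed libraries. The groups did not overlap in either sex. The male difference was -0.15 (SE 0.020, adjusted p = 1.79e-05) and the female difference 0.16 (SE 0.020, adjusted p = 1.87e-05); a two-sided exact permutation test on this single gene gave p = 0.1 in each sex, the smallest that 3 against 3 libraries can give. The difference between the male and female change was -0.31 (SE 0.028, adjusted p = 2.61e-07), the largest of any complex I gene tested with the libraries as labelled. It rests on the female direction: with the genotypes of the libraries labelled female exchanged, the value was 0.0052 (adjusted p = 0.918).

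Ndufv1 holds the flavin and the NADH site. Its values were 14.63, 14.65 and 14.66 in male cardioGRKO libraries, against 14.74, 14.74 and 14.71 in male floxed libraries. Those labelled female had 14.67, 14.65 and 14.64 in cardioGRKO, against 14.55, 14.59 and 14.53 in floxed. It fell by 0.082 in male cardioGRKO hearts (adjusted p = 0.00156) and rose by 0.096 in those labelled female (adjusted p = 0.000502). The male call was lost after quantile normalization for Ndufv1 (-0.036, adjusted p = 0.323) and Ndufs1 (-0.052, adjusted p = 0.0567). Ndufv2, which pairs with Ndufv1 and carries a cluster off the main chain, had 13.97, 13.98 and 13.99 in male cardioGRKO libraries, against 14.18, 14.10 and 14.18 in male floxed libraries (-0.17, adjusted p = 0.000315). Its groups overlapped in the libraries labelled female (0.012, adjusted p = 0.816).

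Among the supernumerary N module genes, Ndufa7 (-0.11), Ndufs4 (-0.098) and Ndufs6 (-0.096) fell in male cardioGRKO hearts, with adjusted p of 0.00102, 0.000295 and 0.00387. Ndufs4 is the subunit whose loss is used to model Leigh syndrome in mice, and Ndufs6 binds zinc. Ndufa2 (-0.064), Ndufa6 (-0.029) and Ndufa12 (-0.060) were not called in males, and none of these 6 was called in females, where they lay between -0.053 and 0.039. The lowest of these, Ndufa6, was called lower in females after quantile normalization (-0.090, adjusted p = 0.00307), under robust moderation (adjusted p = 0.0458) and without female floxed 2 (-0.068, adjusted p = 0.0268).

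The Q module links the matrix arm to the membrane arm and reduces ubiquinone. Ndufs7 carries the last cluster before ubiquinone. It had 13.41, 13.44 and 13.44 in male cardioGRKO libraries, against 13.60, 13.71 and 13.65 in male floxed libraries, a difference of -0.22 (SE 0.030, adjusted p = 2.44e-05), or 85.8% of the floxed level. Females, as labelled, had 13.55, 13.48 and 13.52 in cardioGRKO, against 13.45, 13.54 and 13.40 in floxed; these overlapped and were not called (0.051, adjusted p = 0.219). Without female floxed 2, the female difference was called (0.087, adjusted p = 0.0217). Without both libraries labelled female floxed 1 and 2, which leaves 1 female floxed library, the female difference was 0.11.

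Ndufs8, a further cluster carrier, had 12.80, 12.84 and 12.80 in male cardioGRKO libraries, against 12.97, 12.99 and 12.98 in male floxed libraries (-0.17, adjusted p = 1.87e-06). Its female groups overlapped (-0.014, adjusted p = 0.609). Ndufs3, a core subunit with no redox centre, was the 1 core gene of 7 that was called in no genotype comparison. It had 11.48, 11.53 and 11.32 in male cardioGRKO libraries, against 11.42, 11.47 and 11.46 in male floxed libraries, with the third cardioGRKO library the lowest of the 6. Its differences were -0.0062 in males (adjusted p = 0.939) and -0.041 in females (adjusted p = 0.481). Of the supernumerary Q genes, Ndufa9, which binds NADPH at the joint of the arms, fell in male cardioGRKO hearts by 0.14 (adjusted p = 3.96e-06), and Ndufa5 fell by 0.10 (adjusted p = 0.00437). The female values were -0.030 for Ndufa9 (adjusted p = 0.177) and -0.059 for Ndufa5 (adjusted p = 0.0776). After quantile normalization both were called lower in females, Ndufa9 at -0.066 (adjusted p = 0.00397) and Ndufa5 at -0.13 (adjusted p = 0.000273). Ndufa5 was also called lower without female floxed 2 (-0.084, adjusted p = 0.0107), female cardioGRKO 3 (-0.075, adjusted p = 0.0494) or male floxed 3 (adjusted p = 0.0494).

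**Figure D2:**
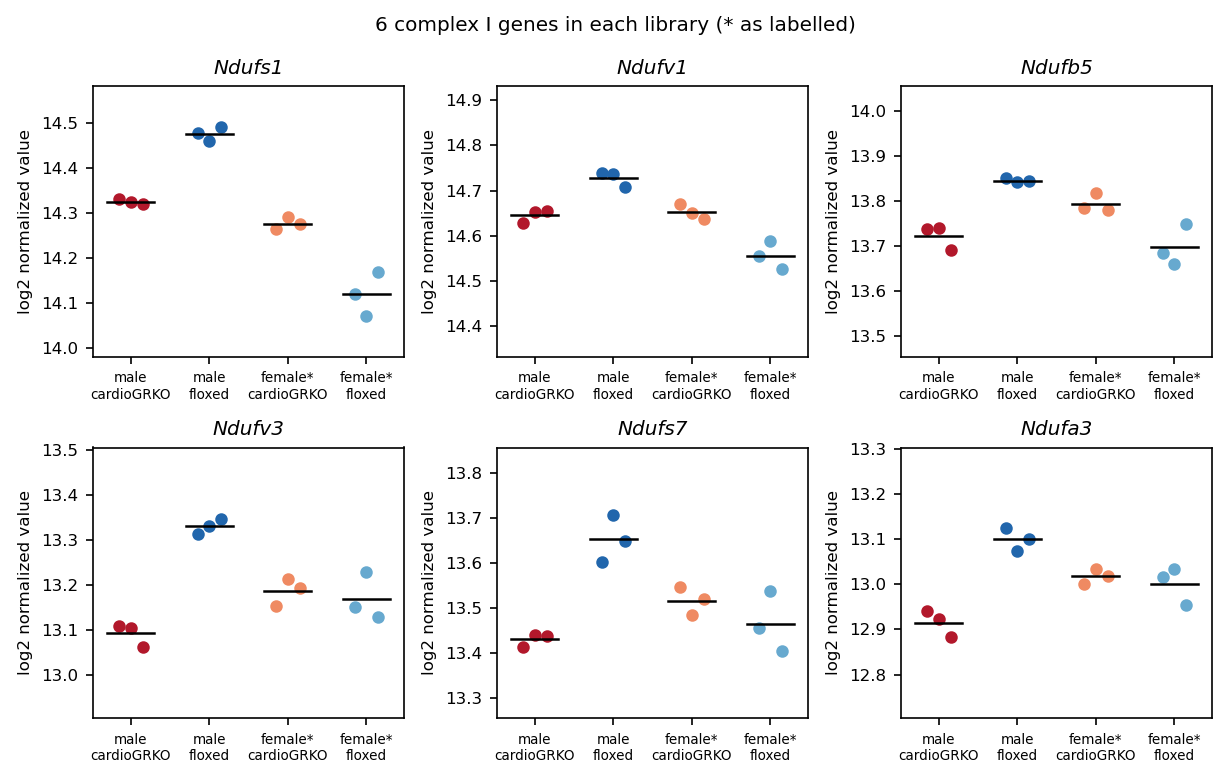
Log2 normalized values of 6 complex I genes in each library (points) with the group mean (line), by sex and genotype, female groups as labelled. Ndufs1, Ndufv1 and Ndufb5 are lower in cardioGRKO than floxed males and higher in cardioGRKO than floxed libraries labelled female; Ndufv3, Ndufs7 and Ndufa3 are lower in male cardioGRKO libraries and overlap in the female ones.

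The proximal membrane arm, which anchors the matrix arm, was mixed. Ndufa3, a small membrane-spanning subunit, had 12.94, 12.92 and 12.88 in male cardioGRKO libraries, against 13.12, 13.07 and 13.10 in male floxed libraries (-0.18, SE 0.022, adjusted p = 7.87e-06). Ndufa1, encoded on the X chromosome (-0.13, adjusted p = 0.0109), Ndufa8, an intermembrane-space subunit (-0.10, adjusted p = 0.000649), and Ndufa10, which resembles nucleoside kinases (-0.079, adjusted p = 0.00936), also fell. The Ndufa10 call was lost after quantile normalization (-0.012, adjusted p = 0.696). Ndufa11 and Ndufa13, also called GRIM-19, had the only positive male differences of the 37. Ndufa11 had 13.26, 13.23 and 13.22 in male cardioGRKO libraries, against 13.20, 13.22 and 13.19 in male floxed libraries, so that the highest values were in cardioGRKO and no library overlapped (0.035, adjusted p = 0.355). The Ndufa13 difference was 0.014 (adjusted p = 0.616); after quantile normalization both were called higher, Ndufa11 at 0.073 (adjusted p = 0.0378) and Ndufa13 at 0.060 (adjusted p = 0.0204). No proximal arm gene was called in females with the values as deposited, but quantile normalization called Ndufa10 (-0.085, adjusted p = 0.00215), Ndufa13 (-0.074, adjusted p = 0.00547) and Ndufc2 (-0.075, adjusted p = 0.0326) lower there. Ndufa10 was also called lower without female floxed 1 (-0.068, adjusted p = 0.0469) or female floxed 2 (-0.067, adjusted p = 0.0327).

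The distal membrane arm ends in the outer proton channels. In male cardioGRKO hearts Ndufb10 (-0.15, adjusted p = 3.54e-05), the X-linked Ndufb11 (-0.14, adjusted p = 6.32e-05), Ndufb8 (-0.14, adjusted p = 2.02e-05), Ndufb3 (-0.12, adjusted p = 0.000342) and Ndufb9 (-0.10, adjusted p = 0.000141) fell; Ndufb8 is widely used as an antibody target for assembled complex I. Ndufb5 had 13.74, 13.74 and 13.69 in male cardioGRKO libraries, against 13.85, 13.84 and 13.84 in male floxed libraries (-0.12, adjusted p = 0.000341). In the libraries labelled female it had 13.78, 13.82 and 13.78 in cardioGRKO, against 13.68, 13.66 and 13.75 in floxed (0.096, adjusted p = 0.00291). Its female call was lost after quantile normalization (0.019, adjusted p = 0.52). Without both libraries labelled female floxed 1 and 2, which leaves 1 female floxed library, the female difference was 0.044.

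Ndufb2, a small distal subunit, was the 1 member called lower in the hearts labelled female cardioGRKO. It had 12.52, 12.47 and 12.42 there, against 12.56, 12.60 and 12.55 in the libraries labelled female floxed (-0.097, SE 0.030, adjusted p = 0.0218). The call was lost without female cardioGRKO 2 (-0.097, adjusted p = 0.0545), female cardioGRKO 3 (-0.073, adjusted p = 0.111) or female floxed 2 (-0.081, adjusted p = 0.0694). Without both female floxed 1 and 2, which leaves 1 female floxed library, the female difference was -0.075. In males its groups overlapped (-0.039, adjusted p = 0.384). Ndufab1, the mitochondrial acyl carrier protein, which also serves fatty acid synthesis, was called in neither sex (-0.098, adjusted p = 0.107 in males; 0.10, adjusted p = 0.0921 in females); the female difference was called without female floxed 1 (0.15, adjusted p = 0.0199) and the male one without female floxed 3 (-0.098, adjusted p = 0.0394). Its male and female changes differed by -0.20 (adjusted p = 0.0198). That call was lost without male cardioGRKO 1 (-0.18, adjusted p = 0.0563), male floxed 1 (-0.16, adjusted p = 0.0573) or female cardioGRKO 1 (-0.18, adjusted p = 0.0505), and with the female genotypes exchanged (0.0021, adjusted p = 0.985).

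Ndufa4 had 14.98, 14.94 and 14.92 in male cardioGRKO libraries, against 15.15, 15.07 and 15.08 in male floxed libraries (-0.15, adjusted p = 4.37e-05). Ndufa4l2, a hypoxia-inducible gene, had 9.48, 9.52 and 9.52 in male cardioGRKO libraries, against 9.65, 9.68 and 9.76 in male floxed libraries (-0.19, adjusted p = 0.000104). Both fell in males. The female differences were 0.018 for Ndufa4 (adjusted p = 0.579) and 0.029 for Ndufa4l2 (adjusted p = 0.512); after quantile normalization the female Ndufa4 difference was -0.082 and was called (adjusted p = 0.00554).

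For the libraries labelled female, most complex I genes did not differ by genotype beyond the spread. In cardioGRKO hearts 4 of 37 rose, Ndufs1, Ndufv1 and Ndufb5 among them, and 1, Ndufb2, fell, where 15.2% of all genes tested rose and 14% fell. The female differences ranged from -0.097 to 0.16 with a median of 0.0018. The summed log2 level of the 36 structural subunits listed did not overlap between the female groups. It was 18.57 to 18.58 in cardioGRKO libraries, against 18.54 to 18.56 in floxed libraries. Genes at high levels weigh most in this sum. Of the 35 structural subunits tested, 19 female differences were positive and 16 negative, with a median of 0.0016. Of the 7 core subunits 3 rose; of the 28 supernumerary subunits tested 1 rose and 1 fell. The female cardioGRKO libraries lay wholly above the female floxed libraries for 5 genes and wholly below for 4, where 21.6% and 19.1% of all genes did so. In females the 928 high-level genes had a median of 0.050, with 47.6% higher and 14.3% lower, while 4 of the 32 complex I genes at that level rose (12.5%). The counts were 8 lower and 3 higher after quantile normalization, and the median was -0.029. Without both libraries labelled female floxed 1 and 2, only 1 female floxed library is left, so effect sizes alone are given. The female median was then 0.019. The differences were 0.11 for Ndufs1, 0.13 for Ndufv1, -0.11 for Ndufa10, -0.098 for Ndufa6 and -0.089 for Ndufa5. The number that fell was 2 without male floxed 3 or without female floxed 1, 3 without female floxed 2, and 0 without female cardioGRKO 2.

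**Figure D3:**
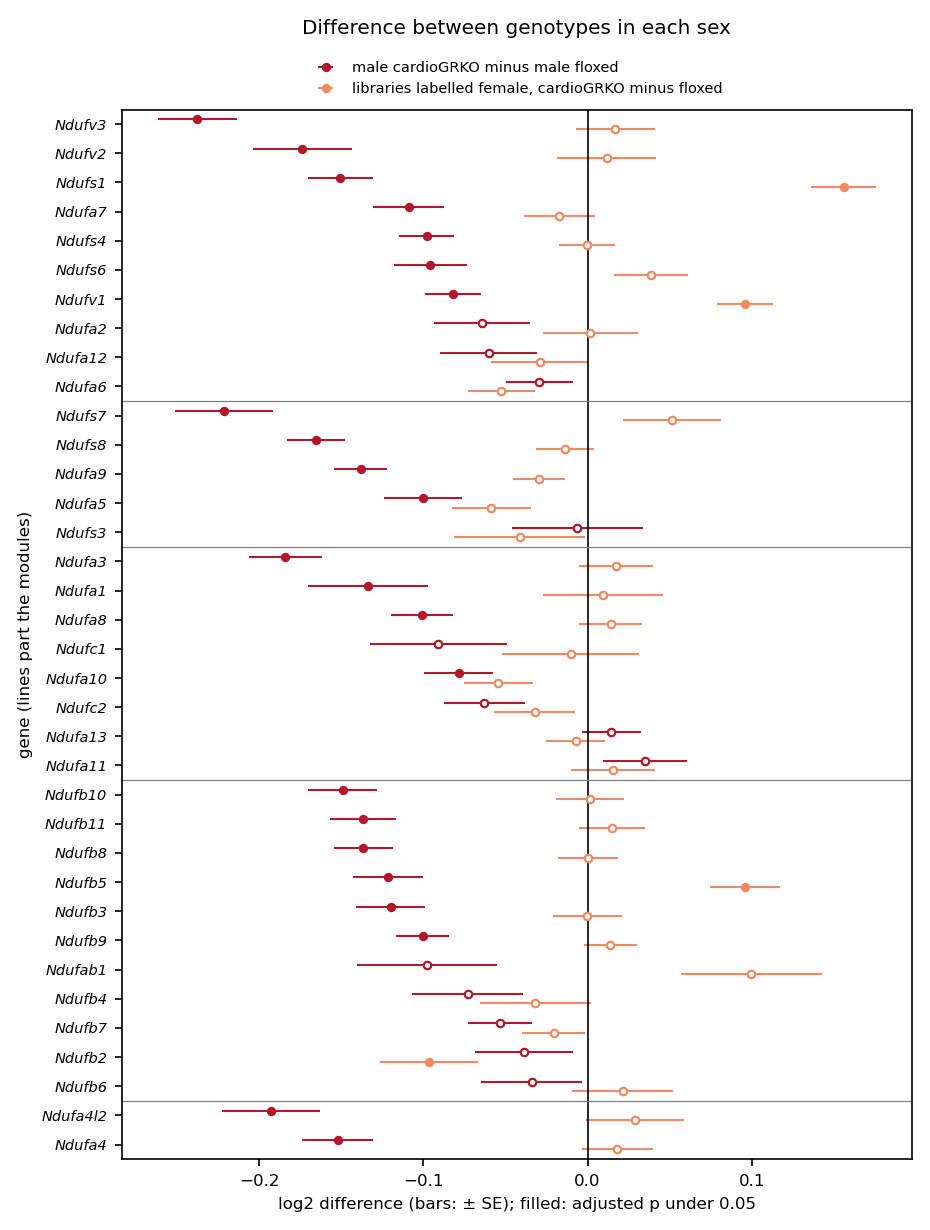
Difference between cardioGRKO and floxed hearts (log2, bars ± SE) for 36 complex I genes (rows, parted by module) in males and in libraries labelled female; filled points have an adjusted p under 0.05. In males 24 of 37 fall and 0 rise, where 14.6% of all genes tested fall and 12.8% rise. In females 4 rise and 1 falls, where 15.2% rise and 14% fall. After quantile normalization 17 fall and 2 rise in males, and 3 rise and 8 fall in females.

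The difference between the sexes in the genotype change was tested directly. The male change was lower than the female change for 23 of 37 genes and higher for 0, where 17% of all genes tested were lower and 14.3% higher. The 37 differences of change ran from -0.31 to 0.058, with a median of -0.11 against -0.0019 over all genes tested. The core subunits had 6 of 7 called and the supernumerary subunits 15 of 28. Among the 928 high-level genes 53.4% were lower and 15.2% higher, with a median of -0.10, and 21 of the 32 complex I genes at that level were lower (65.6%). The count depended on the scaling: after quantile normalization 10 were lower and 3 higher, with a median of -0.028. With the genotypes of the libraries labelled female exchanged, 20 of 37 were lower and 0 higher, with a median of -0.10, where 12.4% of all genes tested were lower and 12.2% higher. Of the 928 high-level genes 27.8% were then lower and 27.6% higher, and 19 of the 32 complex I genes at that level were lower. The exchange only turns the sign of the female difference, so genes with a female difference near 0 keep about the same value. The genes called were partly others: 16 of the 23 were still called, while Ndufs1, Ndufv1 (0.014, adjusted p = 0.724) and Ndufb5 (-0.026, adjusted p = 0.583) were not. Ndufv3 then had the most negative value, -0.22 (adjusted p = 0.000151).

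**Figure D4:**
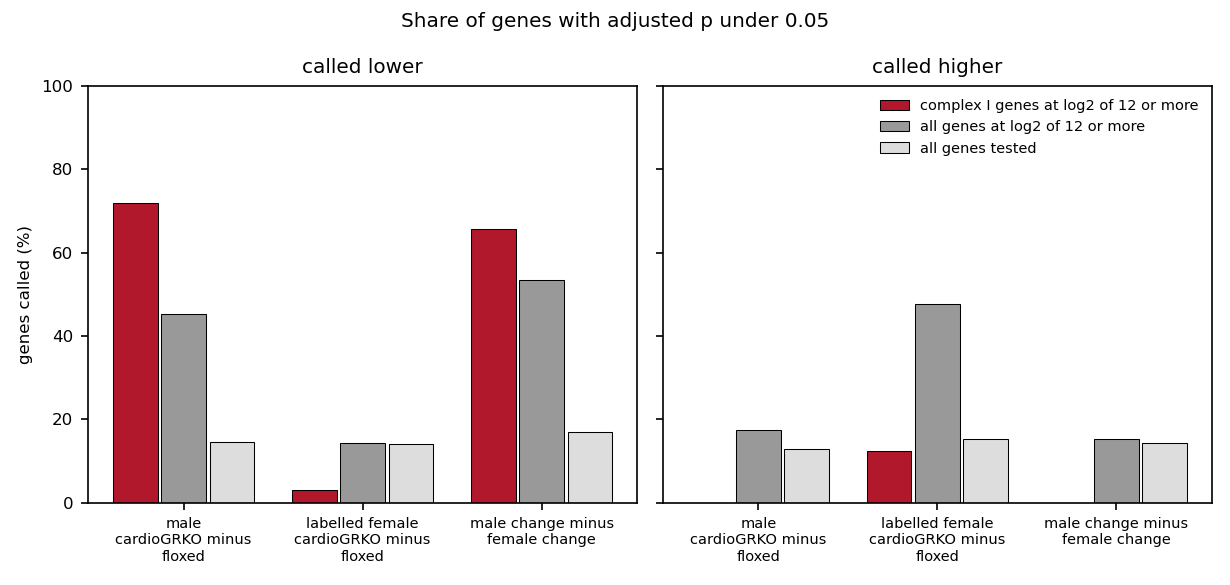
Share of genes (%) called lower (left panel) and higher (right panel) at an adjusted p under 0.05 for the 32 complex I genes averaging a log2 value of at least 12, for all 928 genes at that level and for all genes tested, in the male and female genotype comparisons and in the difference between them. In males 71.9% of these complex I genes were called lower, against 45.3% of all genes at that level and 14.6% of all genes tested.

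Comparing the sexes within a genotype showed which groups stood apart. In floxed hearts, the libraries labelled female had 19 of 37 genes lower and 6 higher than the male ones, where 22.7% of all genes tested were lower and 21.5% higher; the median was -0.055, and quantile normalization turned its sign (0.023, with 5 lower and 11 higher). At a log2 level of at least 12 the share was near that of other genes: 18 of the 32 complex I genes were lower (56.2%, median -0.060), against 58.9% of the 928 genes (median -0.093). Ndufs1 had the most negative value, -0.36 (adjusted p = 3.33e-10), or 78.2% of the male floxed level. Ndufa11 (0.13), Ndufa12 (0.12), Ndufa6 (0.11), Ndufa13 (0.10), Ndufa5 (0.085) and Ndufb7 (0.057) were higher in the libraries labelled female floxed. In cardioGRKO hearts the order was the other way: the libraries labelled female had 23 of 37 genes higher and 0 lower than the male ones, where 11.9% of all genes tested were higher and 12.4% lower, with a median of 0.072. At the high level 21 of 32 complex I genes were higher (65.6%), against 28% of the 928 genes. The libraries labelled female lay wholly below the male ones for 18 genes and wholly above for 5 in floxed hearts, where 26.1% and 24.7% of all genes did so, and for 1 and 26 in cardioGRKO hearts, where 19.8% and 20.3% did so. These 2 comparisons share libraries with the genotype comparisons above. Ndufa4l2 had the largest value, 0.21 (adjusted p = 6.76e-05), and Ndufs1 was not called (-0.048, adjusted p = 0.0898).

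The 4 group means were also put in order for each gene. Male cardioGRKO hearts had the lowest mean for 25 of 37 genes and the highest for 0, where 22.8% and 20.5% of all genes tested did so. Male floxed hearts had the highest mean for 25 and the lowest for 2, where 28.6% and 27.8% did so. The libraries labelled female cardioGRKO had the highest mean for 4 and the lowest for 5, where 20.8% and 20.2% did so, and those labelled female floxed had the highest for 8 and the lowest for 5, where 30.1% and 29.1% did so. The median within-group SD of the 37 genes was 0.025 in male cardioGRKO, 0.024 in male floxed, 0.021 in female cardioGRKO and 0.042 in female floxed libraries. In the 3 male cardioGRKO libraries 34, 32 and 35 of the 37 genes lay below the male floxed mean. Most genes also lay below it in the libraries labelled female: 26, 28 and 27 in cardioGRKO, and 25, 22 and 31 in floxed. The same shares over all genes tested are not given.

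Levels between genes were compared per kilobase of merged exon (GENCODE M21), on the log2 scale, which sets long alternative exons against a gene's level. The median level per kilobase of the 37 genes was 12.74. The highest were Ndufa4 at 14.56, Ndufb9 at 14.37 and Ndufa1 at 14.01, and the lowest were Ndufab1 at 7.49, Ndufb4 at 7.98, Ndufa4l2 at 9.52 and Ndufb2 at 10.04. Ndufab1, Ndufb4, Ndufs6 and Ndufa11 have annotated processed copies elsewhere in the genome, so the counting could have split or dropped their reads and their levels are uncertain.

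Genes around complex I were described from lists. Of 18 complex I assembly factors tested, 7 fell and 0 rose in male cardioGRKO hearts, with a median of -0.053; the share that fell, 38.9%, stands beside 14.6% of all genes tested. Those labelled female had 1 that fell (5.56%) and 3 that rose (16.7%), the second near the 15.2% of all genes tested. Ndufaf4, which acts on the matrix arm during assembly, fell in males (-0.16, adjusted p = 6.82e-05) and rose in females (0.16, adjusted p = 0.000101). Ndufaf1, of the membrane arm assembly complex, fell in males (-0.14, adjusted p = 0.00015). Among 12 genes for other enzymes that feed electrons to ubiquinone, 7 fell (58.3%) and 0 rose in males. In females 8 rose (66.7%) and 0 fell. The male share stands beside 14.6% of all genes tested and 45.3% of the 928 high-level genes. The female share stands beside 15.2% and 47.6%. Not all of the 12 are at the high level. In males Etfa (-0.33, adjusted p = 3.29e-10), a subunit of the electron transfer flavoprotein that takes electrons from fatty acid oxidation, had a larger difference than any complex I gene, and Sdha, the flavin subunit of complex II, fell by 0.17 (adjusted p = 1.28e-07). In females Sdha rose by 0.18 (adjusted p = 1.63e-07).

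Of 34 genes of complexes III and IV and ATP synthase, 25 fell and 1 rose in male cardioGRKO hearts, with a median of -0.12, and 2 fell and 10 rose in the libraries labelled female, with a median of 0.035. The male share that fell, 73.5%, stands beside 14.6% of all genes tested and 45.3% of the 928 high-level genes, and the female share that rose, 29.4%, beside 15.2% and 47.6%. Their summed level was 19.77 to 19.79 in male cardioGRKO libraries, against 19.94 to 19.95 in male floxed libraries. Of 17 regulators of mitochondrial biogenesis, 6 fell (35.3%) and 1 rose in males, and 1 fell and 5 rose (29.4%) in females. Perm1, a muscle regulator of mitochondrial genes, fell in males (-0.34, adjusted p = 2.34e-09) and rose in females (0.16, adjusted p = 3.23e-05). Ppargc1a, the coactivator PGC-1α, fell in both (-0.082, adjusted p = 0.00987 in males; -0.19, adjusted p = 5.43e-06 in females).

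Markers of cell types moved with the same comparisons. In males 14.6% of all genes tested fell and 12.8% rose, and in females 14% fell and 15.2% rose. Of the 928 high-level genes 45.3% fell and 17.5% rose in males, and 14.3% fell and 47.6% rose in females. Many heart markers are highly expressed, and the marker counts here and in the next paragraph stand beside these shares. In bulk hearts, fewer cells of a type and less RNA per cell cannot be told apart. Of 11 cardiomyocyte markers 9 fell and 0 rose in male cardioGRKO hearts (median -0.16), with a summed log2 level of 21.26 to 21.28 in cardioGRKO libraries, against 21.37 to 21.41 in floxed libraries; in females 1 fell and 3 rose. All 7 atrial markers rose in male cardioGRKO hearts, with a summed level of 17.08 to 17.09 there, against 14.88 to 14.91 in male floxed libraries, and all 7 fell in the libraries labelled female cardioGRKO, at 15.66 to 15.69, against 16.73 to 16.78 in female floxed. All 8 endothelial markers fell in males, and in females 1 fell and 5 rose. Of 7 fibroblast markers 0 fell and 5 rose in males, and 4 fell and 1 rose in females. Of 6 smooth muscle and pericyte markers 5 fell and 1 rose in males, and 3 fell and 1 rose in females.

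Brown fat, which lies close to the heart, is also rich in mitochondria. All 8 fat markers rose in the libraries labelled female cardioGRKO, with a summed level of 13.38 to 13.39 there, against 12.03 to 12.17 in those labelled female floxed; in males 5 fell and 1 rose. Of 7 corneal epithelial markers all fell in females, with a summed level of 9.64 to 10.26 in cardioGRKO, against 10.19 to 15.08 in floxed libraries, and none was called in males. Of 5 skeletal muscle markers tested 4 rose and 0 fell in each sex, and Myh4 was under 0.1 in all 12 libraries. The part of these tissues in the complex I differences was not tested.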

How the data were processed

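RNA-seq values of 12 heart libraries were deposited as 1 table. Per the submitters' processing notes, reads were handled with Trim Galore, TopHat2, HTSeq and DESeq2 on the mouse build mm9; versions are not given in the sources used here. The values the authors deposited are log2 normalized expression per gene; the counts and depth behind them are unknown, and how zeros were transformed is not stated.

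Here, genes that reached 10 normalized units on the linear scale in 3 or more libraries were kept (14721), and limma 3.58.1 in R 4.3.3 was fitted to all 12 libraries with 1 mean per group and an intensity trend. Tests were two-sided, with Benjamini-Hochberg adjustment over all genes tested and calls under 0.05. The script was tested on simulated data. Members and lists were chosen with earlier results of these data known. Genes named with values are the core subunits, the members with the largest changes in each sex and in the difference, Ndufa4, Ndufa4l2 and members against the common direction; other lists give counts and up to 4 called genes per comparison. Alternatives covered the filter, scaling, moderation, blocking, 1 sex at a time and left-out libraries. One result is not reported here, although counts over all members include it.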

Additional observations from a re-analysis of the deposited data

Results flagged for a closer look

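The 22 complex I genes below were singled out because the cardioGRKO change in males and the change in the libraries labelled female differed by the test of that difference (limma, adjusted p under 0.05). Each value is the male change minus the female change on the log2 scale, and all 22 are negative with the libraries as labelled. Of all genes tested 17% were called lower in this difference. Among the 928 genes averaging a log2 value of at least 12 the share was 53.4%, against 65.6% of the complex I genes at that level. The sign depended on the female direction, which Nr3c1 goes against, for only a part of these genes. With the genotypes of the libraries labelled female exchanged, 16 of the 22 were still called and negative. After the exchange 12.4% of all genes tested and 27.8% of the 928 were called lower. The exchange only turns the sign of the female difference. Where that difference is near 0, as for Ndufb3 (-0.0001), the value stays near the male change. Ndufs1 (0.0052), Ndufv1 (0.014) and Ndufab1 (0.0021) turned positive and were no longer called. Ndufb5 (-0.026), Ndufs6 (-0.057) and Ndufa1 (-0.12) stayed negative but were no longer called. Among the core subunits the values were -0.31 for Ndufs1, -0.27 for Ndufs7, -0.19 for Ndufv2, -0.18 for Ndufv1 and -0.15 for Ndufs8. Among the supernumerary subunits of the N and Q modules they were -0.25 for Ndufv3, -0.13 for Ndufs6, -0.11 for Ndufa9, -0.098 for Ndufs4 and -0.092 for Ndufa7. In the proximal arm they were -0.20 for Ndufa3, -0.14 for Ndufa1 and -0.11 for Ndufa8. In the distal arm they were -0.22 for Ndufb5, -0.20 for Ndufab1, -0.15 for Ndufb10, -0.15 for Ndufb11, -0.14 for Ndufb8, -0.12 for Ndufb3 and -0.11 for Ndufb9. Ndufa4l2 had -0.22 and Ndufa4 -0.17; after quantile normalization the genes no longer called included Ndufa9 (-0.011), Ndufs8 (-0.060), Ndufv2 (-0.11) and Ndufa4, whose value turned to 0.012.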

How the results depend on the processing

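After quantile normalization the complex I genes called in males were 17 lower and 2 higher (median -0.069), in females 8 lower and 3 higher (median -0.029), and in the difference between the sexes 10 lower and 3 higher (median -0.028). Between the sexes, 20 genes were higher and 1 lower in cardioGRKO hearts labelled female than in male ones (median 0.068). In floxed hearts 5 were lower and 11 higher, with a reversed median of 0.023. Signs turned for Ndufa4 in females (-0.082), and in the difference for Ndufa4 (0.012) and Ndufa10 (0.073). Robust moderation called 4 lower and 4 higher in females, and 1 lower and 21 higher in cardioGRKO hearts labelled female against male. Leaving out both libraries labelled female floxed 1 and 2 leaves 1 female floxed library, so no calls are given for it. The medians were then 0.019 in females and -0.12 in the difference between the sexes. The cause was not tested. Shares of all genes called under the quantile, robust and left-out settings are not given, so these counts cannot be set against other genes. The alternatives for the comparisons between the sexes within a genotype were added after seeing the data, as was exchanging the genotypes of the libraries labelled female. The exchange called 20 lower in the difference and turned the sign of Ndufs1 (0.0052), Ndufv1 (0.014), Ndufab1 (0.0021), Ndufa6 (-0.082), Ndufb2 (-0.14) and Ndufs3 (-0.048). Leaving out 1 library at a time gave 23 to 28 lower in males, 0 to 3 lower and 4 to 5 higher in females, 21 to 23 lower in the difference, 16 to 25 higher and 0 to 1 lower in cardioGRKO hearts between the sexes, and 14 to 19 lower and 5 to 7 higher in floxed hearts; the medians ran from -0.11 to -0.098, -0.0062 to 0.014, -0.13 to -0.11, 0.066 to 0.079 and -0.064 to -0.045. The 1 lower gene between cardioGRKO hearts appeared without male cardioGRKO 3, female floxed 2 or female floxed 3. No pairing of samples by library number was seen, but with 3 libraries a group this check cannot exclude it. Same-numbered deviations correlated between -0.11 and 0.15, and 2 of 6 male and 3 of 6 female libraries correlated best with their own number. With a replicate block, 25 were lower in males, 1 lower and 4 higher in females, and 23 lower in the difference. The filters, median centring and the fit without trend kept these counts within 1.5 times. Depth is unknown, so no counting error can be given.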
